A study of Homo sapiens with 6 samples.

Results

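The genes described here are 10 of the Hippo pathway and its YAP output, in RNA-seq of DLD1 cells with and without a mutated nuclear localization sequence in p85β. They were YAP1, WWTR1, TEAD1, TEAD4, LATS1, LATS2, AMOTL2, CCN1, CCN2 and ANKRD1, chosen by name, and each had 1 row among the 58884 Ensembl genes of the deposited count table. All 10 were among the 16059 genes with enough counts to be tested. Wider lists of 78 Hippo pathway genes and 44 YAP and TAZ target genes were read beside them, and 7 and 5 of the 10 genes also stood on those lists.

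DLD1 is an established human colorectal adenocarcinoma cell line that carries a helical domain mutation of PIK3CA, the gene of the p110α catalytic subunit of PI3K. p85β, the product of PIK3R2, is a regulatory subunit of PI3K. RNA from 3 libraries of parental DLD1 cells was compared with RNA from 3 libraries of cells whose own PIK3R2 gene had been edited to K477A and R478A (p85β KR-AA cells), to ask how gene expression differs once p85β is kept out of the nucleus. The knock-in cells were made with CRISPR/Cas9 and a donor vector with a neomycin cassette and were grown from single clones, whereas the control was the unedited parental line. The labels do not say which clone gave which library, nor that the libraries of a group came from separate cultures, so each p-value measures only the spread between these libraries. The genotype label names the same pair of changes for every KR-AA library, but the source label of KR-AA library 2 reads R479A and that of library 3 reads R480A in place of R478A. By the study's account the edit was made in parental DLD1 cells, so both groups should carry the PI3K mutation, but its presence in these libraries was not checked.

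In the Hippo pathway, the MST kinases (STK3, STK4) with SAV1 and the LATS kinases (LATS1, LATS2) with MOB1 phosphorylate the coactivators YAP (YAP1) and TAZ (WWTR1), which keeps them in the cytoplasm and marks them for breakdown. When the cascade is off, YAP and TAZ enter the nucleus, bind TEAD transcription factors on DNA and raise genes of growth, matrix and cytoskeleton, among them CCN1, CCN2, ANKRD1 and AMOTL2. In the intestine, YAP and TAZ are known for their part in regeneration and in tumour growth. Their activity is set largely by phosphorylation and location of the proteins, which RNA counts do not measure.

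The libraries held 20301932 to 20873475 counts in the parental group and 20301396 to 26712816 in the KR-AA group, and 18922 to 19639 and 23158 to 24315 genes had a count. The groups stood far apart: 46.2% of all genes tested were called at 3-fold or more with an adjusted p under 0.01, with 4597 (28.6%) higher and 2825 (17.6%) lower in KR-AA cells. Long genes, over 4000 bases, gave 9.49% to 12.1% of the parental counts per library, and 27.7% to 28.9% of those from KR-AA cells. Values are therefore also given, where it matters, from a fit that corrects for gene length and GC content by an offset per library (the length and GC offsets). RPS4Y1, a gene of the Y chromosome, had 0 counts in each parental library and 162 to 183 CPM (counts relative to library size, with sizes set by TMM, which aligns libraries by the bulk of their genes) in the KR-AA libraries. Whether both groups come from the same line was not tested, and a difference between the lines and an effect of the edit cannot be told apart in any value below. Of 16 colon epithelial markers, 15 were tested, of which 4 rose (CDH1, CDH17, CEACAM5 and MUC13) and 7 fell (CDX2, VIL1, KRT8, KRT18, KRT19, LGALS4 and PHGR1). With the length and GC offsets CEACAM5 still rose and VIL1, KRT8 and PHGR1 still fell, while the other named markers passed neither threshold. The summed level of the 16 was 57270 to 79295 CPM in parental and 8873 to 10374 CPM in KR-AA libraries. In both groups that sum was made mostly of the keratins KRT8, KRT18 and KRT19, so it says little of the other markers. Of 16 mesenchymal markers, 11 were tested, of which 9 rose and none fell. However, 10 of the 16 had at most 3 counts in each parental library. Those of them that were tested passed the count filter only through the KR-AA libraries and could not have fallen. With the length and GC offsets CDH2 no longer passed, while COL1A1 (1.76) did. The summed level of the 16 was 7.65 to 10.8 CPM and 6345 to 7250 CPM, made mostly of FN1 and VIM in the KR-AA libraries, where TWIST1, COL1A2 and PDGFRA were at 0. Of 6 endothelial, 6 leukocyte and 8 neuronal markers, 3, 2 and 4 were tested, of which 1, 0 and 2 rose and 1, 0 and 0 fell. The risen ones (KDR, NEFL and NEFM) likewise had 0 to 2 counts in each parental library. In bulk RNA, a change in which cells are present and a change in RNA per cell cannot be told apart. The part of gene length, of these markers and of how the lines were derived in the results below was not tested. PIK3R2 itself was at 34.8, 12.3 and 19.3 CPM in parental and 13.7, 16.6 and 4.55 CPM in KR-AA libraries. Its groups overlapped (log2 fold change -0.93 ± 0.42, SE, edgeR adjusted p = 0.0558), and RNA counts cannot show the edited bases. The log2 fold change of PIK3R2 was -0.004 with library totals, -1.39 with an offset for gene length alone and 0.34 with the length and GC offsets. With the replicate number as a block it was -1.01 (edgeR adjusted p = 2.10e-05).

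Of the 10 genes, 7 rose in p85β KR-AA cells, none fell, and TEAD4, CCN1 and AMOTL2 passed neither direction's threshold. Over all genes tested, 28.6% rose and 17.6% fell. The rise ranged from 4.19-fold for YAP1 to 87.9-fold for CCN2, the gene of connective tissue growth factor. At an adjusted p under 0.01 alone, 9 of the 10 were higher and TEAD4 was lower, beside 41.6% and 32.7% of all genes (74.3% in either direction). The libraries of the groups did not overlap for any of the 10, with the KR-AA values above for 9 and below for TEAD4, as they were for 47.0% and 36.5% of all genes (83.5% in either direction). A gene was called risen or fallen at 3-fold or more with a Benjamini-Hochberg adjusted p under 0.01 in edgeR's quasi-likelihood test over all 16059 genes. With the length offset 4 of the 10 rose (24.2% of all genes rose and 12.9% fell), with the length and GC offsets 6 rose (17.8% and 6.55%), and with library totals in place of TMM 9 rose (43.9% and 6.06%). ANKRD1, with 3 or 4 counts in each parental library, was tested only through its KR-AA counts. With at least 10 counts in every library ANKRD1 had no value and 6 genes rose, while 2898 of 12693 genes rose and 2100 fell. None of the 10 fell in any of these fits.

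**Figure D1:**
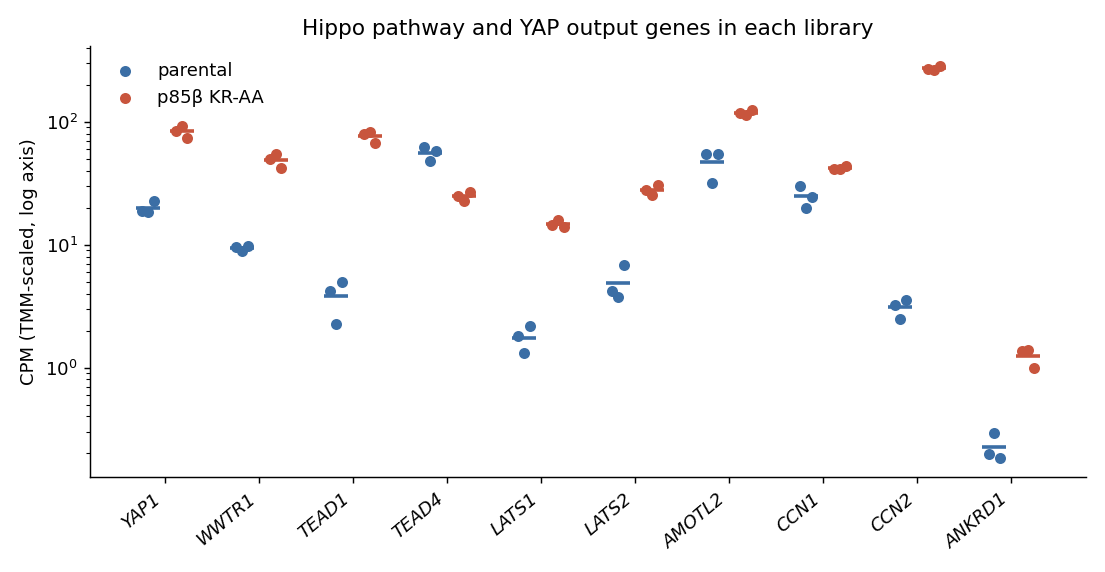
TMM-scaled CPM (log axis) of the 10 Hippo pathway and YAP output genes, with 1 point for each of the 3 parental and 3 p85β KR-AA libraries and a bar at the group mean. The KR-AA points lie above the parental points for 9 genes, by most for CCN2 (3.08 against 273 CPM on average), and below them for TEAD4 (55.7 against 24.8 CPM).

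Both coactivators rose. YAP1 (ENSG00000137693, GRCh37 chr11:101981178-102104155, plus strand) encodes YAP, and stood at 18.9, 18.5 and 22.5 CPM in parental libraries and at 84.9, 93.1 and 73.3 CPM in KR-AA libraries. The lowest KR-AA library was above the highest parental one by a wide margin, and the log2 fold change was 2.07 ± 0.15 (SE, n = 3 per group, edgeR adjusted p = 6.61e-08). The size of this difference was not stable: it was 1.01 with an offset for gene length and 0.40 with the length and GC offsets (edgeR adjusted p = 0.00304), both under the 3-fold threshold. WWTR1 (ENSG00000018408, GRCh37 chr3:149235022-149454501, minus strand) encodes TAZ, the paralog of YAP. Its 3 parental libraries lay close together at 9.57, 8.81 and 9.69 CPM, against 49.6, 54.9 and 42.0 CPM in KR-AA libraries. The log2 fold change of WWTR1 was 2.38 ± 0.16 (SE, edgeR adjusted p = 3.94e-08), and 2.01 with the length and GC offsets, still past the threshold. Per kilobase of the deposited gene length, YAP1 and WWTR1 together stood at 9.53 ± 0.64 CPM per kilobase in parental cells and at 46.0 ± 5.88 in KR-AA cells (SD, n = 3). WWTR1 made up 59.2% to 63.0% of that sum in parental libraries and 65.9% to 66.5% in KR-AA libraries, a difference of 0.31 on the log2 scale in the ratio of WWTR1 to YAP1 (exact permutation p = 0.1, the smallest possible). Their fitted log2 fold changes differed by 1.60 with the length and GC offsets. The deposited lengths of WWTR1 (1603 bases) and TEAD1 (1281 bases) are short for these genes, which raises their values per kilobase. Both offset fits use the same lengths, and with the length offset alone WWTR1 was at 3.23 and TEAD1 at 5.37. Whether other lengths would change the offset values of these genes, or their differences from paralogs, was not tested.

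The TEAD factors, the DNA-binding partners of YAP and TAZ, did not move as a group. TEAD1 (ENSG00000187079, GRCh37 chr11:12695968-12966284, plus strand) was at 4.19, 2.26 and 4.94 CPM in parental libraries and at 80.0, 82.8 and 67.4 CPM in KR-AA libraries. The groups lay far apart, a rise of 20.04-fold (log2 fold change 4.32 ± 0.24, SE, edgeR adjusted p = 8.29e-09). It was 4.21 with the length and GC offsets, which use its short deposited length. TEAD4 (ENSG00000197905, GRCh37 chr12:3068496-3149842, plus strand) was at 61.8, 47.9 and 57.3 CPM in parental libraries and lower, at 25.1, 22.5 and 26.9 CPM, in KR-AA libraries. Its log2 fold change of -1.17 ± 0.15 (SE, edgeR adjusted p = 1.18e-05) is 2.24-fold and short of the threshold. With library totals in place of TMM the log2 fold change of TEAD4 was -0.25 (edgeR adjusted p = 0.182) and with the length offset -0.39, and its direction turned with the length and GC offsets, at 0.70. TEAD2, another member of the family, fell by 1.98 on the log2 scale (from 76.5 to 19.5 CPM on average, edgeR adjusted p = 5.61e-08) but was at -0.54 with the offsets. TEAD3 had a log2 fold change of -0.71 (edgeR adjusted p = 0.00233), 0.20 with library totals and 0.54 with the offsets.

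A share within a library does not depend on how libraries are scaled to each other, though a shift by gene length or GC content still enters it. Of the TEAD counts per kilobase, TEAD1 made up 3.74%, 2.38% and 4.83% in parental libraries and 68.2%, 70.3% and 62.2% in KR-AA libraries. TEAD4 made up 41.3%, 37.9% and 42.0% in parental libraries, where it and TEAD2 were the main TEAD transcripts, and 16.0%, 14.3% and 18.6% in KR-AA libraries. The sum of the family was 80.4 ± 6.76 CPM per kilobase in parental and 89.4 ± 4.17 in KR-AA cells (SD, n = 3). Unlike the shares, this sum depends on the TMM scaling between libraries. It also depends on the short deposited length of TEAD1, so whether the family total differed is not settled by it. Without division by length, TEAD1 took 1.47% to 3.01% of TEAD counts in parental and 49.9% to 58.8% in KR-AA libraries. The ratio of TEAD4 to TEAD1 per kilobase was 11.1, 15.9 and 8.70 in parental libraries and 0.235, 0.203 and 0.299 in KR-AA libraries, a difference of -5.57 on the log2 scale. Fitted with the length and GC offsets, the log2 fold changes of the pair differed by -3.51, a value that also rests on the short length of TEAD1. The exact two-sided permutation test over the 6 libraries gave p = 0.1, the smallest that 3 against 3 libraries allow.

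**Figure D2:**
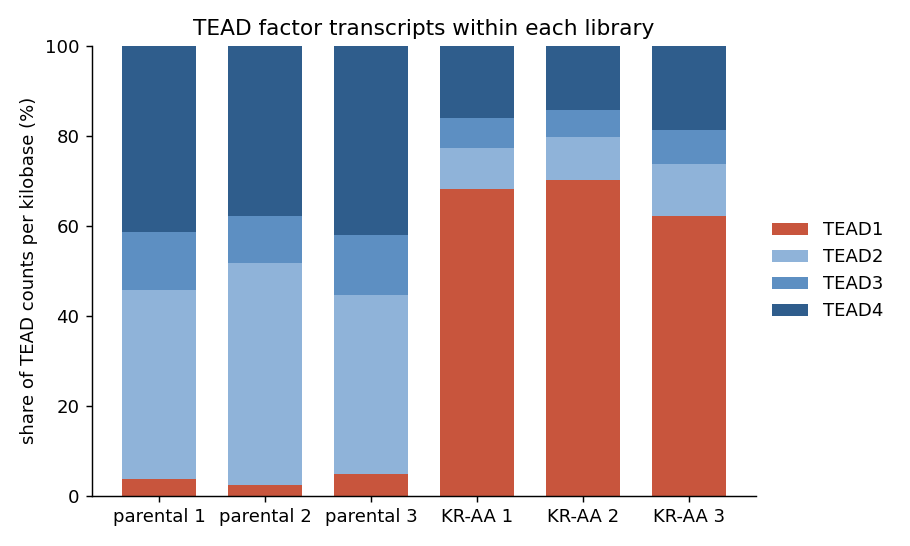
Share (%) of TEAD counts per kilobase that each of TEAD1, TEAD2, TEAD3 and TEAD4 took in each library, stacked to the whole. TEAD1 takes 2.38% to 4.83% in the parental libraries and 62.2% to 70.3% in the KR-AA libraries.

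Both LATS kinases, which inhibit YAP and TAZ, rose from low levels. LATS1 (ENSG00000131023, GRCh37 chr6:149979289-150039241, minus strand) had 27, 18 and 35 counts in parental libraries and 534, 458 and 385 in KR-AA libraries, or 1.79, 1.31 and 2.16 CPM against 14.6, 15.9 and 14.03 CPM. It rose 8.38-fold (log2 fold change 3.07 ± 0.23, SE, edgeR adjusted p = 7.53e-08). LATS1 is the longest of the 10 genes, at 7362 bases, and its log2 fold change was 1.53 with the length offset and 0.72 with length and GC offsets (edgeR adjusted p = 0.00656), both under the threshold. LATS2 (ENSG00000150457, GRCh37 chr13:21547175-21635725, minus strand), which is both a YAP inhibitor and a known YAP target, was at 4.19, 3.79 and 6.79 CPM in parental and 27.7, 25.6 and 30.4 CPM in KR-AA libraries. Its log2 fold change was 2.50 ± 0.22 (SE, edgeR adjusted p = 3.81e-07), 1.41 with the length offset and 1.97 with both offsets. LATS2 exceeded LATS1 per kilobase in every library, by 3.10, 3.83 and 4.17 times in parental and 2.53, 2.13 and 2.88 times in KR-AA libraries (exact permutation p = 0.1, the smallest possible). The difference in this ratio was -0.56 on the log2 scale, but with the length and GC offsets the fitted log2 fold change of LATS2 was above that of LATS1 by 1.25.

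Among the 4 YAP output genes, CCN2 and ANKRD1 rose, and CCN1 and AMOTL2 were higher without reaching a 3-fold change. CCN2 (ENSG00000118523, GRCh37 chr6:132269316-132272512, minus strand), a secreted matrix-associated protein, was at 3.26, 2.48 and 3.52 CPM in parental libraries and at 269.8, 262.5 and 286.6 CPM in KR-AA libraries. The KR-AA libraries lay close to one another, and the log2 fold change was 6.46 ± 0.17 (SE, edgeR adjusted p = 4.84e-11). It stayed between 6.30 and 6.53 when any 1 library was left out and was 6.98 with the length and GC offsets. CCN1 (ENSG00000142871, GRCh37 chr1:86046444-86050272, plus strand), the paralog of CCN2 also known as CYR61, was at 30.2, 19.9 and 24.6 CPM in parental and at 41.6, 41.1 and 43.7 CPM in KR-AA libraries. Its log2 fold change was 0.76 ± 0.17 (SE, edgeR adjusted p = 0.000995), a 1.69-fold difference. With library totals in place of TMM it was 1.68 and passed the threshold.

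The CCN paralogs exchanged rank. The ratio of CCN2 to CCN1 per kilobase was 0.105, 0.121 and 0.139 in parental libraries and 6.32, 6.22 and 6.397 in KR-AA libraries. This is a difference of 5.70 on the log2 scale, or 52.1-fold, and no scaling between libraries enters it, while the deposited lengths, 2338 and 2278 bases, are alike (exact permutation p = 0.1, the smallest possible). The fitted log2 fold changes of the pair differed by 6.24 with the length and GC offsets.

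AMOTL2 (ENSG00000114019, GRCh37 chr3:134074189-134094321, minus strand), an angiomotin that is a target of YAP and also binds and restrains it, was at 54.3, 31.6 and 55.0 CPM in parental libraries. In KR-AA libraries it was at 117.3, 114.0 and 123.9 CPM, above all parental values. The log2 fold change of 1.33 ± 0.19 (SE, edgeR adjusted p = 2.52e-05) is 2.52-fold, and it passed the threshold with library totals (2.24) and with the length and GC offsets (1.69). With the length offset alone it was 0.63. ANKRD1 (ENSG00000148677, GRCh37 chr10:92671853-92680844, minus strand), an ankyrin repeat protein best known in muscle, was scarce: 3, 4 and 3 counts in parental libraries and 50, 40 and 27 in KR-AA libraries. Pooled over libraries and scaled, the ratio was 5.67 (95% exact interval 2.98 to 12.1, from 10 and 117 counts, covering counting error only). The log2 fold change of ANKRD1 was 2.46 ± 0.43 (SE, edgeR adjusted p = 0.000160), the least precise of the 10, and 3 counts correspond to 0.185 to 0.218 CPM in the parental libraries.

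**Figure D3:**
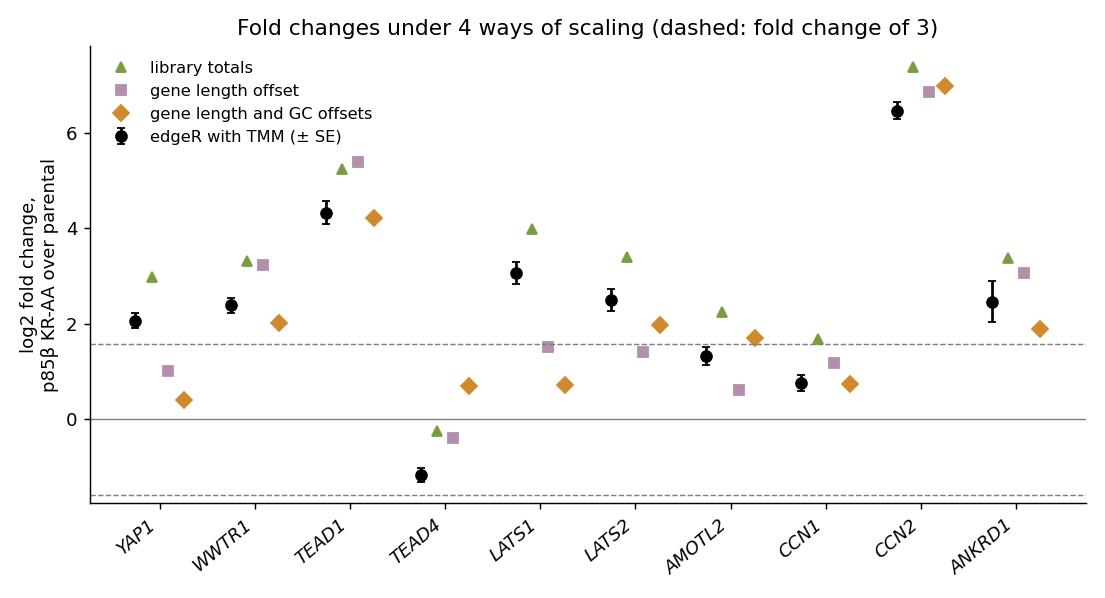
log2 fold change of the 10 genes, p85β KR-AA over parental, from edgeR with TMM (black, bar ± SE), with library totals, with an offset for gene length and with the length and GC offsets. The dashed lines mark a 3-fold change, and CCN2, TEAD1, WWTR1 and ANKRD1 stay above the upper line in all 4 fits, YAP1 drops to 0.40 with both offsets, and TEAD4 lies at -1.17 with TMM and at 0.70 with both offsets. The offsets use the deposited lengths, which are short for TEAD1 and WWTR1.

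TEAD factors bind the sequence GGAATG, read as CATTCC on the other strand, and this was searched for in the 250 bases before each RefSeq transcription start (GRCh38.p14). The 3 output genes that had a matching promoter entry are shown. Capitals mark GGAATG or CATTCC on the printed strand, which is that of the gene, written 5′ to 3′.

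CCN2, chr6:131951373-131951622, minus strand: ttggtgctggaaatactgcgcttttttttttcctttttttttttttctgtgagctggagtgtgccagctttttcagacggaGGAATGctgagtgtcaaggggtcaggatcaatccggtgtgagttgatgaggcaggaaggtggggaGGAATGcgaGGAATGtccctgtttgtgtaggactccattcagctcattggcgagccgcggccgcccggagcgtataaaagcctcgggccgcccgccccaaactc

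ANKRD1, chr10:90921088-90921337, minus strand: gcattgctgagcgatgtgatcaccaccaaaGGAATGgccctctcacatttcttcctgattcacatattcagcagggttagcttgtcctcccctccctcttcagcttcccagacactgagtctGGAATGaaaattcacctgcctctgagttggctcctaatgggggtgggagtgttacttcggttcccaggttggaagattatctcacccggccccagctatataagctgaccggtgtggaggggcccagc

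AMOTL2, chr3:134374448-134374697, minus strand: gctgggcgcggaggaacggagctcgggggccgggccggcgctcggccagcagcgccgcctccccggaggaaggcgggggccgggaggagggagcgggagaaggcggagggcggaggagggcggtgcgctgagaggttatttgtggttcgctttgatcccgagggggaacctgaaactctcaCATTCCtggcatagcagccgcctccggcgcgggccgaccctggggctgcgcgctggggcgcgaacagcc

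The CCN2 promoter held 3 matches, 169, 104 and 95 bases before the start, a number that 0.0826% of the 35116 promoters of the table reached. ANKRD1 held 2, at 220 and 128 bases, as did 0.940% of promoters at least. AMOTL2 held 1, at 69 bases, in the entry shown and none in its other entry, and YAP1 held 1, at 162 bases. At least 1 match was found in 11.9% of all promoters. The entries of WWTR1, LATS1 and LATS2 had no match in this window, and CCN1, TEAD1 and TEAD4 were not matched to an entry. Of the 34 promoter entries of the target list, from 27 genes, 15 (44.1%) had a match. That list holds CCN2, ANKRD1 and AMOTL2. A match is a description of the reference letters, and TEAD binding was not measured here. Whether the number of matches bears on the size of a change was not tested.

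Compared per kilobase, the order of the 10 genes differed between the groups. In parental cells TEAD4 was highest, at 32.6 ± 4.14 CPM per kilobase (SD, n = 3). CCN1 (10.9 ± 2.26) and AMOTL2 (10.4 ± 2.94) came next and overlapped, followed by WWTR1 (5.84 ± 0.29), then by YAP1 (3.70 ± 0.40) and TEAD1 (2.96 ± 1.08), which overlapped. CCN2 (1.32 ± 0.23) overlapped with LATS2 (0.887 ± 0.294), and LATS1 (0.238 ± 0.058) and ANKRD1 (0.114 ± 0.029) were lowest. In KR-AA cells CCN2 led at 117 ± 5.29 CPM per kilobase, ahead of TEAD1 at 59.9 ± 6.41. WWTR1 (30.5 ± 4.04) and AMOTL2 (26.2 ± 1.12) overlapped, CCN1 (18.5 ± 0.59) stood alone, and YAP1 (15.5 ± 1.84) and TEAD4 (14.5 ± 1.304) overlapped. LATS2 (5.03 ± 0.44), LATS1 (2.02 ± 0.13) and ANKRD1 (0.630 ± 0.115) kept the last places.

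The rest of the pathway was read from a list of 78 genes by role, of which 71 were tested. Of these, 31 rose, 9 fell and 31 passed neither threshold, and their median log2 fold change was 1.15, beside 28.6% risen, 17.6% fallen and a median of 0.32 over all genes. With the length and GC offsets 12 rose and 6 fell, with a median of 0.31, beside 17.8% risen, 6.55% fallen and a median of 0.28 over all genes, so the list then stood near the background. With library totals 39 rose and none fell, beside 43.9% and 6.06% of all genes. With at least 10 counts in every library 30 rose and 8 fell, beside 2898 and 2100 of 12693 genes.

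Of the core kinase cassette, 4 of 7 genes rose and none fell, beside 28.6% and 17.6% of all genes. With the length and GC offsets 2 of the 7 rose and 1 fell, beside 17.8% and 6.55%, and their median was 0.27. Besides LATS1 and LATS2 these were STK4, which encodes the kinase MST1 (9.14 to 47.1 CPM on average, log2 fold change 2.36, edgeR adjusted p = 1.07e-07), and MOB1B, a LATS coactivator (0.953 to 11.4 CPM, 3.57, edgeR adjusted p = 2.20e-07). STK4 was at 0.27 with the length and GC offsets, while MOB1B was at 3.35. MOB1B overlaps DCK on the same strand, which had 334 and 584 counts on average in the parental and KR-AA groups against 14.3 and 353 for MOB1B, so reads of the pair may have been split between them. No difference was detected for the paralog MOB1A (67.7 and 65.1 CPM, log2 fold change -0.05 ± 0.17, SE, edgeR adjusted p = 0.773), although it was at 0.88 with library totals and fell by 1.92 with both offsets. STK3, which encodes MST2, had overlapping groups (3.59 to 9.69 CPM and 9.11 to 14.3 CPM, edgeR adjusted p = 0.0264). SAV1, the scaffold of the MST kinases, was higher without reaching 3-fold (log2 fold change 1.08), and at 0.10 with the offsets.

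Upstream and beside the cassette, single genes moved in both directions. Of 5 membrane activators, 3 rose, and 1 with the length and GC offsets, beside 28.6% and 17.8% of all genes. The one that rose in both fits was FRMD6, which encodes Willin (2.22 to 39.8 CPM, log2 fold change 4.17 ± 0.33, SE, edgeR adjusted p = 1.26e-07). No difference beyond the spread was detected for NF2, the gene of Merlin (0.22 ± 0.17, SE, edgeR adjusted p = 0.241), but its value was 1.14 with library totals and -1.004 with the length offset, in opposite directions and each with an adjusted p under 0.01. WWC1, the gene of KIBRA, was lower in KR-AA cells (-0.78), though at 0.12 with library totals. The angiomotins AMOT (3.12) and AMOTL1 (2.69) rose, from 1.15 and 3.11 CPM to 10.1 and 20.2 CPM. With the length and GC offsets AMOT was at 2.69, while AMOTL1, at 1.19, and at 0.89 with the length offset alone, no longer passed the threshold. AMOTL2 remained the main angiomotin, at 93.6 ± 1.00% of their counts per kilobase in parental and 83.2 ± 0.02% in KR-AA cells (SD, n = 3). PTPN14, a phosphatase that binds and restrains YAP and is also its target, rose from 4.19, 1.89 and 5.80 CPM to 115.9, 127.8 and 142.4 CPM (log2 fold change 5.002 ± 0.28, SE, edgeR adjusted p = 9.45e-09). It was at 2.84 with both offsets.

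The 3 other risen genes with the largest change were FAT4, TAOK1 and SLMAP. FAT4, a giant protocadherin, had 0, 2 and 0 counts in parental and 186, 195 and 138 in KR-AA libraries, a scaled ratio of 126 (95% exact interval 34.6 to 1041). TAOK1, a kinase that acts on the MST kinases, rose with a log2 fold change of 4.11, which was 1.31 with the offsets. SLMAP, a part of the STRIPAK phosphatase complex that opposes the MST kinases, rose with a log2 fold change of 3.33, and 1.71 with the offsets. The 3 fallen genes with the largest change were SFN (the epithelial 14-3-3σ), CRB3 and SCRIB (both of epithelial polarity), at -2.45, -2.39 and -2.33. With the length and GC offsets SFN was at -0.17, CRB3 at 0.08 and SCRIB at -1.43, so that none of the 3 passed the threshold. CRB3 overlaps SLC25A23 and DENND1C on the other strand, and strand was not stated to have been used in counting. Among the VGLL cofactors, which compete with YAP and TAZ for TEADs, VGLL3 rose from 6, 3 and 3 counts to 49, 58 and 37 (log2 fold change 2.53, but -0.18 with the offsets). VGLL4 was at 0.61. Its neighbour on the other strand, ATG7, had 509 and 513 counts on average in the parental and KR-AA groups, against 445 and 1393 for VGLL4. VGLL1 had 12 counts in the parental libraries and 1 in the KR-AA libraries and was not tested.

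**Figure D4:**
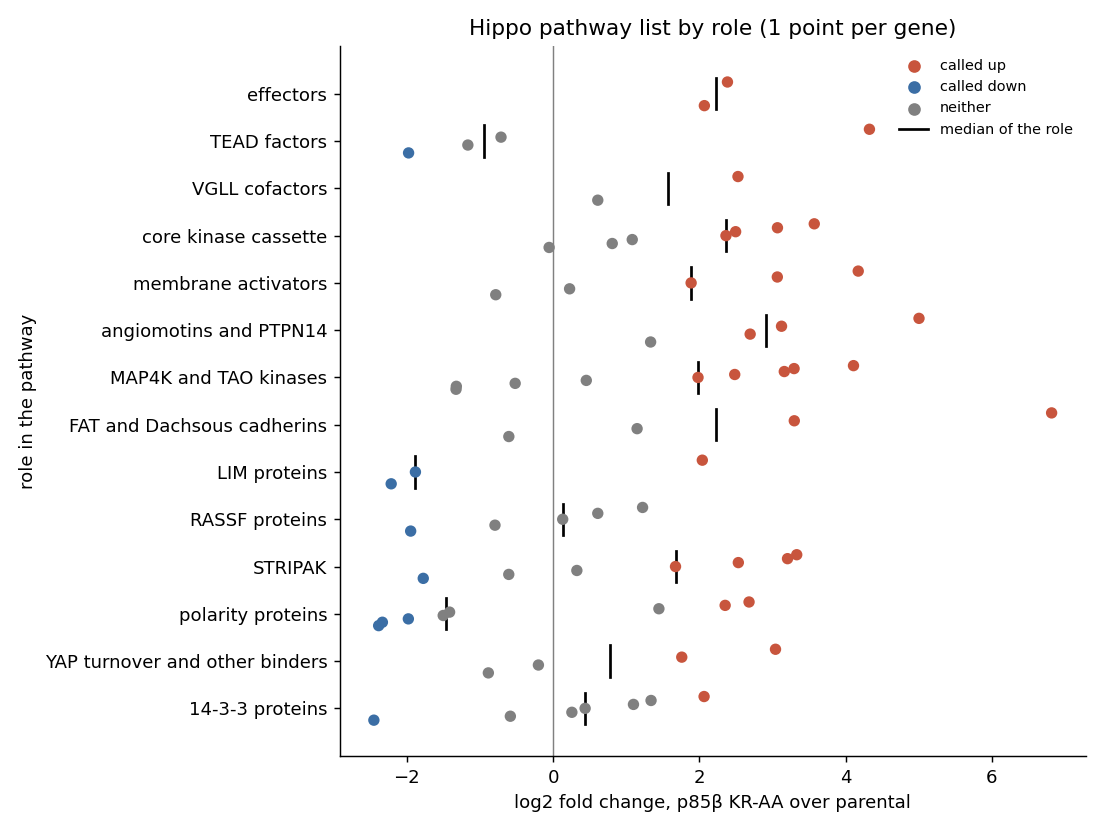
log2 fold change, p85β KR-AA over parental, of the 71 tested genes of the Hippo pathway list by role, 1 point per gene coloured by its call, with a bar at the median of each role. Effectors (2 of 2, but 1 of 2 with the length and GC offsets) and angiomotins with PTPN14 (3 of 4 in both fits) are mostly risen beside 28.6% of all genes, and 3 of 8 polarity genes are fallen (0 of 8 with the offsets) beside 17.6%, while the value of FAT4, at the far right, rests on 2 parental counts.

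Of the 44 genes of the YAP and TAZ target list, 43 were tested, of which 21 rose, 3 fell and 19 passed neither threshold, with a median log2 fold change of 1.58. Over all genes tested, 28.6% rose, 17.6% fell and the median was 0.32. Without the 5 of the list that belong to the set of 10, 18 of 38 rose and 3 fell, with a median of 1.52. With the length and GC offsets 20 rose and 3 fell, with a median of 1.47, where 17.8% and 6.55% of all genes were called and the median was 0.28. Among the risen, ANKRD1, EDN1, DLC1, FOXF2, RBMS3, CAVIN2 and INHBA had under 10 counts in every parental library. They were tested only through their KR-AA counts. With at least 10 counts in every library 16 rose and 3 fell, beside 2898 and 2100 of 12693 genes. No test of a list was made, and the summed mesenchymal markers given above moved with the target list.

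The largest increases on the target list were of genes nearly without counts in parental cells. CAVIN2, a caveolar coat protein, had 0, 1 and 0 counts in parental and 1841, 1463 and 838 in KR-AA libraries, a scaled ratio of 2008 (95% exact interval 360.2 to 79323). INHBA, the activin A subunit, had 0, 1 and 0 counts against 718, 605 and 367, a ratio of 819 (147 to 32376). FOXF2, a forkhead factor of mesenchyme, had no count in any parental library and 318, 238 and 168 in KR-AA libraries, so that it was at least 35.2-fold higher against 3 counts per library. RBMS3, an RNA-binding protein, had 0, 2 and 0 counts against 111, 88 and 45, a ratio of 59.1 (16.2 to 491). Only IGFBP3, an insulin-like growth factor binding protein, and CCN2 among the 6 largest rested on ample parental counts. IGFBP3 rose from 17.8, 17.8 and 19.7 CPM to 2446, 2407 and 2590 CPM (log2 fold change 7.07 ± 0.16, SE, edgeR adjusted p = 1.72e-11).

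The list did not move as one. The receptor tyrosine kinase AXL rose from 9.72 to 56.1 CPM on average (log2 fold change 2.52, edgeR adjusted p = 8.44e-08, and the same 2.52 with the offsets). EREG, a ligand of the EGF receptor, lay just under the threshold at 1.58, and at -0.18 with the offsets. For AREG, a related ligand, no difference was detected (157.7, 100.3 and 149.2 CPM against 122.0, 128.9 and 126.1 CPM, edgeR adjusted p = 0.532), while its log2 fold change was 1.14 with the length offset and 0.80 with library totals, each with an adjusted p under 0.01. MYC (0.69) and THBS1 (1.46) were higher in KR-AA cells without reaching 3-fold, and THBS1 was at -0.35 with the offsets. The 3 genes that fell were TAGLN, an actin-binding protein of smooth muscle (15.3 to 1.73 CPM, -3.14), BIRC5, the gene of survivin (374 to 83.2 CPM, -2.17), and AJUBA, a LIM protein that inhibits LATS (219 to 59.4 CPM, -1.88). All 3 also fell with the length and GC offsets. With library totals only TAGLN (-2.20) fell, and BIRC5 (-1.24) and AJUBA (-0.96) were under the threshold. TAGLN lies over PCSK7 on the other strand, which had 1075 to 1297 counts on average against 53.3 to 227 for TAGLN.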

How the data were processed

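RNA-seq counts of DLD1 parental cells (3 libraries) and p85β KR-AA cells (3 libraries) were analysed, grouped by the labels' genotype and replicate number. The authors deposited estimated counts (expected counts, not normalized) per Ensembl gene and 1 column of gene length. The methods name SeqPrep and Sickle for trimming. The submitters' processing notes name HISAT2 2.1.0, RSEM 1.3.1, DESeq2 1.24.0 and hg18, without roles. The annotation was not given in the sources used here. Between 8.78% and 13.98% of values above 0 were not whole and were rounded, and 0 columns were left unused. No libraries of a group were alike within sampling noise.

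Symbols and coordinates came from GENCODE 44 on GRCh37, matched by Ensembl identifier (56745 of 58884). The comparison was fitted in edgeR 4.0.16 (R 4.3.3) with filterByExpr (minimum count 10, minimum total 15), TMM, the quasi-likelihood test and Benjamini-Hochberg adjustment over 16059 genes, no covariate, and the study's thresholds. Standard errors were derived from the fold change and the F statistic. CPM used TMM-scaled library sizes. Alternatives were DESeq2 1.42.0, library totals, other filters and thresholds, the replicate block, each library left out, and spline offsets (5 degrees of freedom) for gene length alone or with GC content (15902 genes with a value). The fit was tested on simulated data. Ratios within a library were tested by exact permutation with SciPy 1.17.1.

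The genes and lists were chosen with earlier results of these data known. Named from the lists were fixed genes of each role, the 3 other called Hippo genes and the 6 called target genes with the largest change in each direction, among genes with a mean of at least 1 CPM. Only 3 target genes were called down. For 1 other gene of the target list no value is reported here, though the list's counts include it. The same-numbered libraries of the groups had correlations of -0.14, 0.12 and -0.04 between their deviations from the group means, so the numbers were not taken as pairs. Depth limited low genes: 3 counts were 0.0818 to 0.218 CPM.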

Additional observations from a re-analysis of the deposited data

How the results depend on the processing

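Of 139 refitted log2 fold changes of the 10 genes, 130 kept their direction and their side of the threshold, 5 were weaker, 3 passed the threshold newly and 1 turned sign. All of these changes came with library totals, the length offset or the length and GC offsets. The other refits, most of them close to the main fit, changed none, so the pooled count says little about scaling. With the gene length offset YAP1 (1.01), LATS1 (1.53) and LATS2 (1.41) dropped under the 3-fold threshold. This left 4 of the 10 genes and 17 of the 71 tested genes of the Hippo pathway list risen, beside 24.2% of all genes. With length and GC offsets YAP1 (0.40) and LATS1 (0.72) dropped under it, AMOTL2 (1.69) passed it and TEAD4 turned to 0.70. Of the 71 tested genes of the Hippo list 12 then rose, while 2830 (17.8%) of all genes rose and 1041 (6.55%) fell. With library totals AMOTL2 (2.24) and CCN1 (1.68) passed, and 7052 genes (43.9%) rose and 973 (6.06%) fell. Among the fallen were 0 of the 71 tested Hippo genes and 1 of the 43 tested target genes. The share of risen among called genes was 61.9%, against 87.9% with library totals, 73.1% with both offsets and 65.2% with the length offset, and the median of all genes shifted by 0.92 with library totals, 0.15 with the length offset and -0.12 with DESeq2. With at least 10 counts in every library 2898 genes rose, the median of the genes kept shifted by 0.20, and ANKRD1 had no value. At an adjusted p under 0.05 with no fold threshold 7373 of the 16059 genes tested were higher and 5738 lower. Those lower included 1 of the 10 genes (TEAD4), 22 of the 71 Hippo genes and 7 of the 43 target genes. At a 2-fold threshold 1 of the 10 genes and 14 of the 71 Hippo genes were lower, beside 4196 of the 16059 genes tested. Leaving out any 1 library gave 4404 to 4783 risen and 2774 to 2992 fallen genes. The replicate block gave 4626 and 2827, with infinite prior degrees of freedom (also with robust moderation, 4618 and 2823), and it changed no call of the 10 genes, with 7 risen. The cause of these changes was not tested. Between paralogs, the difference of fitted log2 fold changes with both offsets, added after the data were seen, turned sign for LATS2 to LATS1 (1.25, against -0.56). Depth limits genes with few parental counts, among them FOXF2, CAVIN2, INHBA, FAT4, RBMS3, ANKRD1, VGLL1 and VGLL3.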

Other observations

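Relatives of the YAP output genes, listed after the values above were seen, did not follow them uniformly. Of the CCN family, CCN5 rose from 1.93, 1.38 and 1.85 CPM to 37.1, 32.8 and 39.8 CPM (log2 fold change 4.399, edgeR adjusted p = 4.17e-09), and CCN3 was higher at 1.53, under the 3-fold threshold. CCN3 passed it with library totals (2.46) and with the length offset (1.86), and was at 1.07 with both offsets. CCN4 had 3 and 2 counts in all in the parental and KR-AA groups, and CCN6 had none. Of the relatives of ANKRD1, ANKRD2 fell by 1.88 on the log2 scale (5.48 to 1.49 CPM). The log2 fold change of ANKRD2 was -0.96 with library totals and turned sign, to 0.22, with the length and GC offsets (edgeR adjusted p = 0.335). No difference was detected for ANKRD23 (0.06, edgeR adjusted p = 0.812), though its log2 fold change was 1.503 with both offsets and 0.98 with library totals, each with an adjusted p under 0.01.

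AP-1 factors, which are known to act with TEADs at many enhancers, did not keep 1 direction across fits. All 10 listed were tested, of which none rose and 3 fell, beside 28.6% and 17.6% of all genes. The fallen were JUND (229 to 43.1 CPM, -2.41), BATF (10.03 to 1.81 CPM, -2.48) and BATF3 (5.07 to 0.758 CPM, -2.73). ATF3 was at -1.39, FOSL1 at -1.31, JUNB at -1.07, JUN at -0.90, FOS at 0.81 and FOSL2 at 0.96, each with an edgeR adjusted p under 0.01, and FOSB at 0.24 (adjusted p = 0.43). The median of the 10 was -1.19. With the length and GC offsets it was 0.18, FOS (1.62) rose, BATF3 (-2.26) fell, and JUND (-0.07) and BATF (-0.18) no longer passed. JUNB (1.05) and FOSL1 (0.44) then turned sign, while ATF3 stayed at -1.38 and JUN was at -0.23.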
